A study of Arabidopsis thaliana with 12 samples.

Results

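The mutants of the 2 subunits of the Arabidopsis histone chaperone FACT, spt16-2 and ssrp1-2, were compared directly with each other. The members are the 3 libraries of each mutant, 6 of the 12 libraries in the series, and every gene of the count table entered. All are libraries of total RNA from Arabidopsis thaliana seedlings, harvested 12 days after germination. Stratification took 4 days in the cold (4 °C), and the plants then grew on soil in long days at 21 °C. The group ssrp1-2 carries a mutant allele of SSRP1, the group spt16-2 carries a mutant allele of SPT16, and both are set beside the unmutated accession Columbia-0 (Col-0, 3 libraries). The series also holds 3 libraries of nrpb2-3, a mutant of an RNA polymerase II subunit, which here serve mainly the estimate of the spread. The labels give neither the lesion of each allele nor whether a replicate is a separate sowing, so the p-values rest on the scatter among these libraries, part of which may be technical.

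FACT is a dimer of SSRP1 and SPT16 that loosens nucleosomes ahead of a transcribing polymerase and helps to restore them behind it. SSRP1 carries an HMG box that binds DNA, and SPT16 binds H2A-H2B histone dimers. In Arabidopsis FACT is found over transcribed genes, and plants with reduced FACT flower early and have altered leaves and inflorescences. The direct comparison asks at which genes the transcript levels of the 2 mutants differ.

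SSRP1 was called lower in ssrp1-2 than in spt16-2, and SPT16 had a lower mean in spt16-2 without being called. SSRP1 (AT3G28730) stood at 20.7, 19.7 and 17.9 CPM (counts in a library of 1000000, scaled by TMM) in ssrp1-2 replicates 1 to 3. In spt16-2 it stood at 49.8, 57.1 and 49.1 CPM, and in Col-0 at 38.9, 48.4 and 44.2 CPM. Every spt16-2 library lay above every ssrp1-2 library by more than 2-fold, and the difference was called (log2 fold change of spt16-2 over ssrp1-2 1.42 ± 0.11 SE, adjusted p = 0.00014). An adjusted p under 0.05 over all tested genes is what is meant by called throughout. SPT16 (AT4G10710) stood at 77.6, 86.4 and 78.3 CPM in ssrp1-2, above all 3 Col-0 libraries (44.9, 62.0 and 54.6 CPM). In spt16-2 it stood at 27.8, 55.4 and 30.01 CPM. The library labelled spt16-2 replicate 2 thus goes against its label at SPT16, at a level inside the Col-0 range. ERD2, AT3G25960 and AT4G27890 had 77, 43 and 20 counts in it and 0 in every Col-0 and ssrp1-2 library. These genes were chosen after their values were seen, among genes called higher by fits that counted it as spt16-2. That choice favours counts in it, so they cannot check its label, and its genotype was not tested. The difference of SPT16 between the mutants was −1.1 ± 0.22 (log2), with a 95% interval from −1.57 to −0.63, and was not called (adjusted p = 0.17). Against Col-0 SPT16 was −0.51 ± 0.22 in spt16-2 (adjusted p = 0.54) and 0.59 ± 0.22 in ssrp1-2 (adjusted p = 0.38), neither called. The difference between the mutants was called by DESeq2 (adjusted p = 0.0011) and with a trend with gene length removed (adjusted p = 0.024). It was called with the replicate number as a block (−1.15, adjusted p = 0.012). It was also called without the library labelled spt16-2 replicate 2 (−1.48, adjusted p = 0.0025). That library stands out by its SPT16 level, so leaving it out favours this call and lends it no support. Other settings did not call SPT16. Among them were the fits without spt16-2 replicate 1 (−0.92, adjusted p = 0.62) and without replicate 3 (−0.96, adjusted p = 0.71). The 6 mutant libraries alone did not call it either (−1.09, adjusted p = 0.59). SSRP1 was called in all 23 alternative settings.

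**Figure D1:**
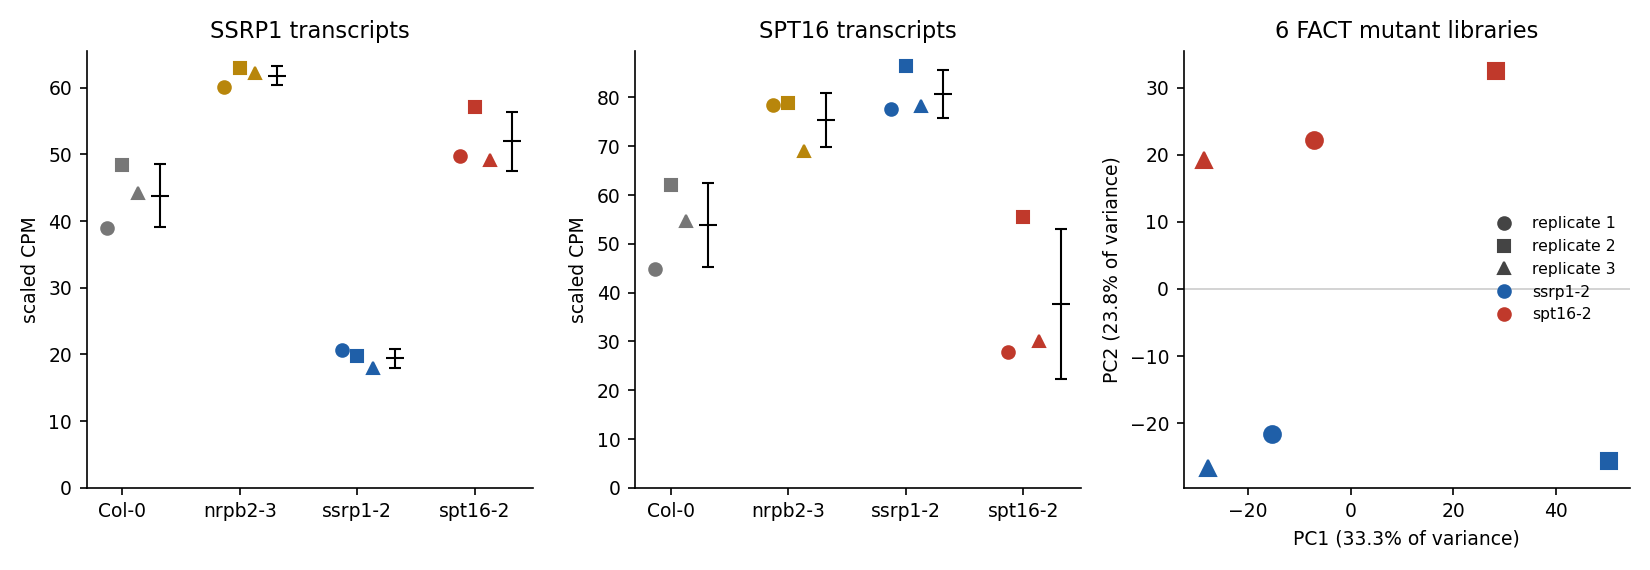
Left and middle, scaled CPM of SSRP1 and SPT16 in each library of the 4 genotypes (circle, square and triangle are replicates 1, 2 and 3; bars are the mean and SD of 3 libraries). Right, the 6 FACT mutant libraries on their first 2 principal components, where PC1 sets replicate 2 of each mutant to the right and PC2 sets the mutants apart.

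The libraries of the mutants held 39570446 to 43431691 counts. Libraries of 1 genotype lay about as far from each other as from those of the other mutant. The root mean square log2 distance between an ssrp1-2 and an spt16-2 library was 0.479 to 0.655 (median 0.556 over 9 pairs), beside 0.491 to 0.633 within ssrp1-2 and 0.458 to 0.559 within spt16-2. On the first principal component of the 6 libraries (33.3% of the variance) replicate 2 of ssrp1-2 lay at 50.5 and replicate 2 of spt16-2 at 28.5, with the other 4 between −28.6 and −7.04. The second component (23.8%) had ssrp1-2 at −26.6 to −21.6 and spt16-2 at 19.2 to 32.5. Leaf markers were abundant in both mutants (RBCS1A at 19688 to 26955 CPM). Of the root markers, PYK10 stood at 40.6 to 91.7 CPM in ssrp1-2 and at 45.5 to 66.0 CPM in spt16-2. CASP1 stood at 0.155 to 0.465 CPM over both mutants, TIP2;3 at 0.0547 CPM or less, and the root hair marker EXPA7 at 0 in all 6. Of the seed markers, CRA1 stood at 0.0736 to 0.302 CPM over both mutants, OLEO1 and SESA1 at 0.164 CPM or less, and EM1 at 0 in all 6.

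Few genes separated the mutants. Of 20471 genes tested, 14 were called (0.0684%), 11 of them higher in spt16-2 (0.0537%) and 3 lower (0.0147%). Of all tested genes 1740 (8.5%) had no overlap between the 3 spt16-2 and 3 ssrp1-2 libraries, 925 (4.52%) with spt16-2 above and 815 (3.98%) with ssrp1-2 above. The 14 are among them, as a choice by the test favours, and 13 of the 14 differed by more than 2-fold. Against Col-0, 114 genes were called in ssrp1-2 (0.557%) and 86 in spt16-2 (0.42%), in contrasts that share the Col-0 libraries. An unadjusted p under 0.05 was found for 619 genes (3.02%), a share below the 0.05 that evenly spread p-values would give. With the replicate number as a block it was found for 854 genes. In the 6 mutant libraries alone with that block it was found for 1145 of 19665. The cause was not tested. The median log2 fold change over all tested genes was −0.0018, with a median SE of 0.19. For 15910 genes (77.7%) the 95% interval of the difference lay within 2-fold in either direction, and 651 genes had a point estimate beyond 2-fold. The failure of most genes to pass does not show that they were alike in the 2 mutants. DESeq2 called 39 higher and 15 lower, the 6 mutant libraries fitted alone with the replicate number as a block gave 35 and 19, and all 12 libraries with the block gave 13 and 7, each with all 14 among them. Without the library labelled spt16-2 replicate 2, 4 genes were called higher and 1 lower. Of these 5, SSRP1, AT2G18193, AT5G60250 and AT3G41762 are among the 14 and the lower gene is SPT16. Without ssrp1-2 replicates 1, 2 and 3 in turn, 3, 3 and 4 genes were called higher and 1 lower each time. Without spt16-2 replicates 1 and 3 in turn, 6 and 3 were called higher and 1 lower. Without nrpb2-3 replicate 2, 7 were called higher and 2 lower, and without Col-0 replicate 1, 13 and 6. With the library labelled spt16-2 replicate 2 left out and the block kept, 6 were called higher and 3 lower, 8 of the 14 among them.

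**Figure D2:**
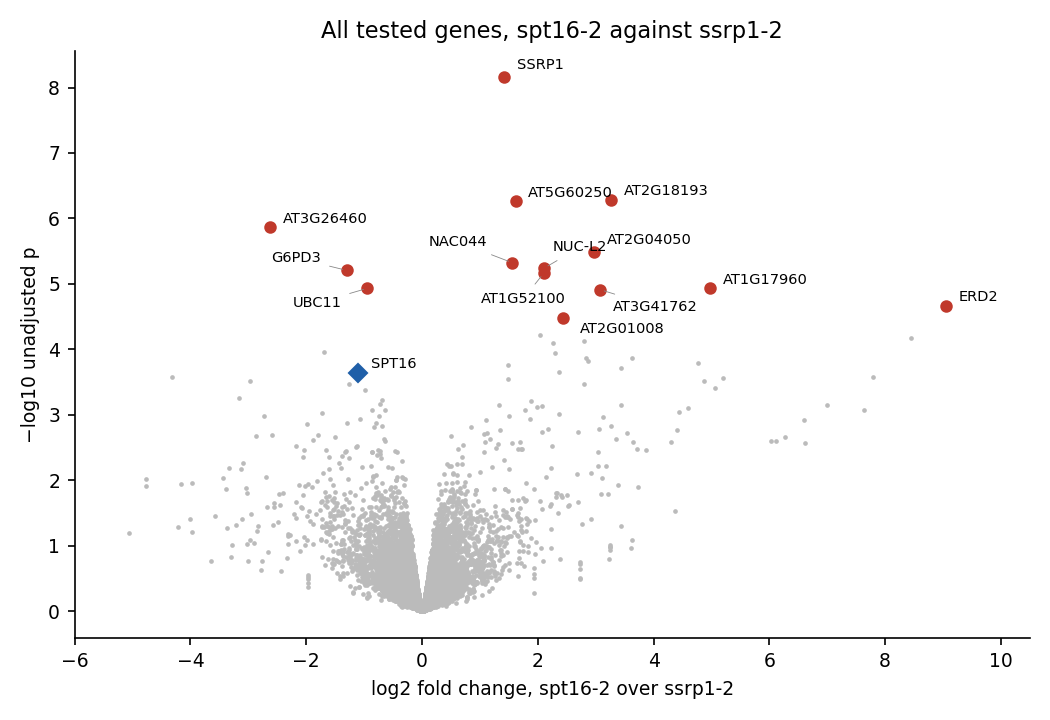
Each point is 1 of the 20471 tested genes, by its log2 fold change of spt16-2 over ssrp1-2 (x) and the −log10 of its unadjusted p in edgeR's quasi-likelihood test (y). The 14 called genes are in red, 11 to the right and 3 to the left, and SPT16, not called, is a blue diamond; the x position of ERD2, which had 0 counts in ssrp1-2, depends on the fit's prior and is no estimate of its size.

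The 11 genes higher in spt16-2 include a DNA damage regulator, a heat shock protein, a nucleolin and several genes that were near 0 in Col-0. In these bulk samples fewer cells of a type and less RNA per cell cannot be told apart. NAC044 (AT3G01600), a transcription factor that takes part in arresting the cell cycle after DNA damage, stood at 1.91, 1.61 and 1.54 CPM in ssrp1-2. In spt16-2 it stood at 4.20, 5.54 and 5.20 CPM, and in Col-0 at 0.965, 0.693 and 0.940 CPM. Both mutants lay above Col-0 and spt16-2 lay above ssrp1-2 (1.56 ± 0.22, adjusted p = 0.016). In nrpb2-3 NAC044 stood at 3.26, 4.09 and 3.63 CPM, also above Col-0. Against Col-0 its change was called in spt16-2 (2.52 ± 0.23, adjusted p = 0.00023) and not in ssrp1-2 (0.96 ± 0.23, adjusted p = 0.11).

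ERD2 (AT1G56410), a member of the HSP70 chaperone family also named HSP70T-1, had 0 counts in all ssrp1-2 and all Col-0 libraries. In spt16-2 it stood at 2.01, 1.89 and 0.911 CPM, 189 counts in all. It was therefore at least 60.9-fold higher in spt16-2 than in ssrp1-2 and at least 57.2-fold higher than in Col-0, against a floor of 3 counts over each group (adjusted p = 0.034 between the mutants). Of the 15 genes of the heat shock list 9 were tested and 0 were called between the mutants, beside 0.0684% of all tested genes. The list had a median of 0.15. HSP18.2 (AT5G59720), of the small heat shock proteins, stood at 6.36 ± 0.633 CPM in ssrp1-2 and 7.06 ± 0.911 CPM in spt16-2 (SD, n = 3), above 2.65 ± 0.164 CPM in Col-0.

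AT1G17960, annotated as a threonyl-tRNA synthetase, stood at 0.136, 0.137 and 0 CPM in ssrp1-2 and at 2.14, 3.19 and 3.38 CPM in spt16-2. In Col-0 it was at 0 in 2 libraries and at 0.115 CPM in the other, and in nrpb2-3 at 0.820, 1.23 and 1.91 CPM. Its log2 fold change between the mutants was 4.98 ± 0.74 (adjusted p = 0.021), on 10 counts in all in ssrp1-2. AT2G18193, annotated as a nucleoside triphosphate hydrolase with a P-loop, stood at 0.953, 1.18 and 0.605 CPM in ssrp1-2 and at 9.57, 9.54 and 7.24 CPM in spt16-2. It was 9.64-fold higher in spt16-2 (3.27 ± 0.37, adjusted p = 0.0037). In nrpb2-3 it stood at 2.11, 1.46 and 3.71 CPM, and in Col-0 at 0.322, 0.635 and 0.322 CPM. With SSRP1 and AT5G60250 it is 1 of the 3 genes called in every alternative setting.

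AT5G60250, annotated as a RING zinc finger protein, showed a graded pattern. It stood at 0.907, 1.3 and 0.752 CPM in Col-0, at 3.08, 3.17 and 2.72 CPM in ssrp1-2 and at 9.67, 9.42 and 8.41 CPM in spt16-2. None of the 3 genotypes overlapped, and each difference was called (ssrp1-2 over Col-0 1.6 ± 0.20, adjusted p = 0.0034; spt16-2 over ssrp1-2 1.62 ± 0.18, adjusted p = 0.0037). In nrpb2-3 it stood at 10.4 to 12.1 CPM. AT2G04050, annotated as a MATE efflux transporter, was near the Col-0 level in ssrp1-2, and nrpb2-3 stood above Col-0 at 0.851 to 1.35 CPM. It stood at 0.191, 0.410 and 0.630 CPM in ssrp1-2, at 2.99, 3.75 and 3.03 CPM in spt16-2 and at 0.263 to 0.491 CPM in Col-0 (2.97 ± 0.40 between the mutants, adjusted p = 0.013; 0.09 and 3.07 over Col-0 in ssrp1-2 and spt16-2, adjusted p = 0.98 and 0.0039).

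NUC-L2 (AT3G18610) encodes a nucleolin, a nucleolar protein of ribosomal RNA gene regulation. It stood at 0.680, 0.903 and 1.13 CPM in ssrp1-2 and at 3.2, 3.83 and 4.8 CPM in spt16-2, with Col-0 at 0.779 to 1.43 CPM (2.11 ± 0.30, adjusted p = 0.016). In nrpb2-3 it stood at 3.42, 3.15 and 4.43 CPM, which overlaps spt16-2. None of the 7 tested members of the ribosome biogenesis list was called, beside 0.0684% of all tested genes, with a list median of 0.05. AT1G52100, annotated as a mannose-binding lectin, had ssrp1-2 apart from Col-0 instead. It stood at 0.381, 0.356 and 0.328 CPM in ssrp1-2, below Col-0 (1.38, 1.53 and 0.806 CPM), and at 1.65, 1.55 and 1.39 CPM in spt16-2, near Col-0. The difference between the mutants was 2.1 ± 0.30 (adjusted p = 0.016). The difference of ssrp1-2 from Col-0 was −1.79 ± 0.31 (adjusted p = 0.018) and that of spt16-2 was 0.31 ± 0.26 (adjusted p = 0.84). In nrpb2-3 it stood at 24.3 to 43.3 CPM.

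The 3 genes lower in spt16-2 were an enzyme of the pentose phosphate pathway, a ubiquitin-conjugating enzyme and a gene whose rise over Col-0 was called in ssrp1-2 only of the 2 mutants. G6PD3 (AT1G24280), a plastid glucose-6-phosphate dehydrogenase, stood at 9.23, 10.4 and 11 CPM in ssrp1-2 and at 4.44, 3.61 and 4.39 CPM in spt16-2, with Col-0 at 6.23, 9.41 and 10.2 CPM. The spt16-2 libraries lay below both other genotypes (−1.3 ± 0.18 against ssrp1-2, adjusted p = 0.016; −1.05 ± 0.18 against Col-0, adjusted p = 0.024). UBC11 (AT3G08690), an E2 enzyme that passes ubiquitin to target proteins, stood at 29.8, 28.8 and 34.5 CPM in ssrp1-2 and at 15.1, 17.5 and 15.9 CPM in spt16-2. Col-0 stood at 22.4 to 31.3 CPM, and the difference between the mutants was −0.94 ± 0.14 (adjusted p = 0.021). AT3G26460, annotated as a polyketide cyclase or lipid transport protein, stood at 6.53, 9.14 and 4.79 CPM in ssrp1-2, at 1.57, 0.907 and 0.831 CPM in spt16-2 and at 0.410, 0.491 and 0.564 CPM in Col-0. It was 6.16-fold lower in spt16-2 than in ssrp1-2 (−2.62 ± 0.32, adjusted p = 0.0070). Its rise over Col-0 was called in ssrp1-2 (3.79 ± 0.35, adjusted p = 0.00046) and not in spt16-2 (1.17 ± 0.36, adjusted p = 0.30). In nrpb2-3 AT3G26460 stood at 2.71, 3.85 and 2.25 CPM, also above Col-0.

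**Figure D3:**
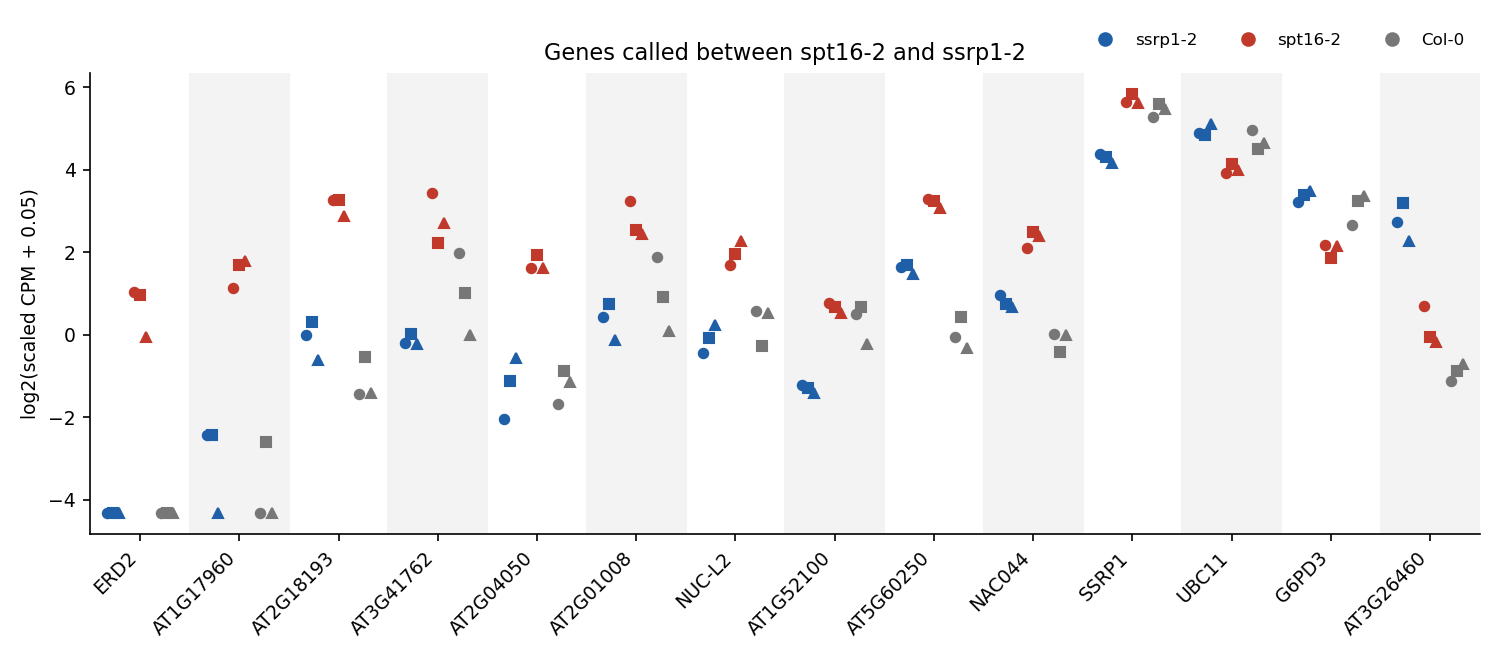
Scaled CPM of the 14 called genes in each ssrp1-2 (blue), spt16-2 (red) and Col-0 (grey) library, as log2 of CPM plus 0.05 (circle, square and triangle are replicates 1, 2 and 3; the lowest marks are libraries with 0 counts). Blue and red do not overlap in any of the 14, and ERD2 is at 0 in every ssrp1-2 and Col-0 library.

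Several of the called genes overlap other gene models or are near copies of them, so they may share reads and their counts are less certain. AT3G41762, of no annotated function, stood at 0.816, 0.958 and 0.806 CPM in ssrp1-2 and at 10.8, 4.64 and 6.46 CPM in spt16-2 (3.08 ± 0.46, adjusted p = 0.021), with Col-0 at 0.940 to 3.92 CPM. AT2G01008 stood at 1.31, 1.61 and 0.857 CPM in ssrp1-2 and at 9.44, 5.74 and 5.39 CPM in spt16-2 (2.44 ± 0.40, adjusted p = 0.049), with Col-0 at 1.02 to 3.63 CPM. The gene models are near copies: AT3G41762 aligns over its full 1419 bases to AT2G01008 at 99.1% identity in the TAIR10.1 genome, so reads can come from either and these may be 1 signal. AT3G41762 also overlaps another tested gene, the locus AT3G06345, at 9.39 to 20.1 CPM in ssrp1-2 and 36.6 to 65.9 CPM in spt16-2. SSRP1 overlaps AT3G28740, a cytochrome P450 gene that was at 1.08 CPM or less in all 12 libraries, and G6PD3 overlaps AT1G24290, at 3.73 to 4.82 CPM in ssrp1-2 and 3.14 to 3.79 CPM in spt16-2. AT5G60250 and AT2G01008 overlap untested genes. Whether counting used strand is not stated, so the part of each partner cannot be told apart.

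The replicate block added 6 genes to the 14, named here after their values were seen. Besides SPT16 they are EXLB1, QQS, HB5, AT2G16586 and AT5G15360. EXLB1 (AT4G17030), an expansin-like protein of the cell wall, stood at 6.01, 4.27 and 2.75 CPM in ssrp1-2 and at 12.5, 13.4 and 10.3 CPM in spt16-2, with Col-0 at 9.11 to 10.2 CPM (1.52, adjusted p = 0.0062 with the block). QQS (AT3G30720), an orphan gene that affects the balance of starch and protein, stood at 3.67, 4.82 and 5.34 CPM in ssrp1-2 and at 1.16, 1.35 and 1.80 CPM in spt16-2, with Col-0 at 0.664 to 1.90 CPM (−1.70, adjusted p = 0.034 with the block). HB5 (AT5G65310), a homeodomain-leucine zipper transcription factor, stood at 86.7, 53.2 and 86.5 CPM in ssrp1-2 and at 45.9, 32.6 and 45.3 CPM in spt16-2 (−0.86, adjusted p = 0.019 with the block). In each mutant HB5 was lowest in replicate 2. The nrpb2-3 libraries stood at 12.1 to 19.6 CPM for QQS, 5.89 to 12.2 CPM for EXLB1 and 119 to 136 CPM for HB5.

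In a fit of the 6 mutant libraries alone with the block, an alternative added after the data had been seen, 35 genes were called higher and 19 lower, with all 14 among them. SPT16 was just outside (adjusted p = 0.051). From the 40 that this fit added, a few are given here, chosen after their values were seen. UBC12 (AT3G08700), the protein-coding gene next to UBC11, had 3 counts in all in ssrp1-2 and 127 in spt16-2, a ratio of 40.9 (95% counting interval 13.7 to 201), and stood at 0.903, 1.47 and 0.857 CPM in spt16-2. So UBC11 and its neighbour differed in opposite directions (adjusted p = 0.0065 and 0.0098 in that fit). The other adjacent pair among the called genes, AT5G53230 and AT5G53240, differed in the same direction. AT5G53230 stood at 0.328 to 0.465 CPM in ssrp1-2 and at 2.49 to 3.35 CPM in spt16-2. AT5G53240 stood at 0 to 0.0756 CPM in ssrp1-2 and at 0.670 to 1.05 CPM in spt16-2. SWI1 (AT5G51330), a meiotic chromosome gene, stood at 0.202 to 0.438 CPM in ssrp1-2 and at 1.88 to 2.62 CPM in spt16-2 (2.81, adjusted p = 0.0051 in that fit). CRC (AT1G69180), a YABBY transcription factor of carpels and nectaries, stood at 2.56, 3.34 and 2.37 CPM in ssrp1-2, at 1.11, 1.13 and 0.509 CPM in spt16-2 and at 0.263 to 0.564 CPM in Col-0. PORA (AT5G54190), which makes chlorophyllide in the light, stood at 13.3 to 13.9 CPM in ssrp1-2 and at 22.2 to 31.5 CPM in spt16-2 (0.99, adjusted p = 0.0075 in that fit, and 1.0 with all 12 libraries and no block).

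The DNA damage list leaned toward spt16-2. Of its 12 genes 11 were tested and 1, NAC044, was called, beside 0.0684% of all tested genes. The median log2 fold change was 0.43, beside −0.0018 over all genes, and 10 of the 11 point estimates were above 0. The median stayed between 0.36 and 0.54 in every alternative, with 0.42 without the library labelled spt16-2 replicate 2. Summed over the list, the level was 136 to 147 CPM in ssrp1-2, 187 to 206 CPM in spt16-2 and 126 to 152 CPM in Col-0, mostly from TSO2.

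TSO2 (AT3G27060), a subunit of the ribonucleotide reductase that makes deoxynucleotides, stood at 105, 93.5 and 94.9 CPM in ssrp1-2 and at 152, 128 and 136 CPM in spt16-2 (0.51 ± 0.13, 95% interval 0.22 to 0.80, adjusted p = 0.52). SMR7 (AT3G27630), an inhibitor of cyclin-dependent kinases, stood at 0.299, 0.438 and 0.151 CPM in ssrp1-2 and at 1.01, 0.785 and 1.02 CPM in spt16-2 (1.66 ± 0.47, adjusted p = 0.62). NAC085 (AT5G14490), the closest relative of NAC044, stood at 0 to 0.0821 CPM in ssrp1-2 and at 0.361, 0.540 and 0.643 CPM in spt16-2 (3.44 ± 0.79, adjusted p = 0.32). None of these 3 was called. In nrpb2-3 TSO2 stood at 84.4 to 116 CPM, SMR7 at 0.562 to 0.740 CPM, NAC085 at 0.205 to 0.783 CPM and GMI1, given below, at 14.2 to 14.7 CPM. Over the list, 7 of 11 tested genes had every spt16-2 library above every ssrp1-2 library, beside 4.52% of all tested genes, and TSO2, SMR7 and NAC085 are among the 7. GMI1 (AT5G24280), which responds to double-strand breaks, stood at 4.38, 6.65 and 4.94 CPM in ssrp1-2, at 7.02, 11.9 and 7.80 CPM in spt16-2 and at 1.05 to 2.40 CPM in Col-0, and replicate 2 was the highest in both mutants (0.74 ± 0.27, adjusted p = 1.0). SOG1 (AT1G25580), the transcription factor upstream of the response, stood at 11 ± 1.06 CPM in ssrp1-2 and 11.4 ± 2.42 CPM in spt16-2, with a 95% interval of the log2 difference from −0.29 to 0.39.

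Genes of flowering time, floral organs and the shoot meristem gave no call between the mutants, and the lean of their values differed by list. Only 0.0684% of all tested genes were called, so the absence of calls in lists of this size says little about them. Of the floral promoters 0 of 11 tested genes were called, 9 point estimates were below 0 and the median was −0.36. Of these 11 genes 4 did not overlap between the mutants, 3 with ssrp1-2 above and 1 with spt16-2 above, beside 8.5% of all tested genes. Of the floral organ genes 0 of 9 were called, 4 estimates were below 0 and the median was 0.01. Of the meristem and boundary genes 0 of 10 were called, 8 estimates were below 0 and the median was −0.20. Over all 20471 tested genes 10331 estimates were below 0. The medians over the same lists against Col-0 were 0.73, 1.95 and 1.26 in ssrp1-2 and 0.36, 2.92 and 0.87 in spt16-2. Both sets of values share the Col-0 libraries.

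AP1 (AT1G69120), which sets floral meristem identity, stood at 3.35, 4.35 and 4.23 CPM in ssrp1-2, at 2.22, 1.99 and 1.23 CPM in spt16-2 and at 0.433 to 0.645 CPM in Col-0. The order was Col-0, spt16-2, ssrp1-2 with no overlap, and the difference between the mutants was −1.13 ± 0.32 (95% interval −1.81 to −0.45, adjusted p = 0.61). FUL (AT5G60910), a relative of AP1, stood at 7.16 to 8.69 CPM in ssrp1-2 and at 5.14 to 6.25 CPM in spt16-2 (−0.51 ± 0.21, adjusted p = 1.0). AGL24 (AT4G24540), a promoter of the floral transition, stood at 8.14 to 9.42 CPM in ssrp1-2, at 10.8 to 13.1 CPM in spt16-2 and at 13.6 ± 0.53 CPM (SD, n = 3) in Col-0 (0.44 ± 0.13, adjusted p = 0.83). FT (AT1G65480), the mobile flowering signal, stood at 3.96 ± 1.69 and 2.99 ± 1.15 CPM (SD, n = 3) in ssrp1-2 and spt16-2, with overlapping libraries and a 95% interval from −1.40 to 0.59.

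The SEPALLATA genes, MADS-box partners of all floral organ programmes, took different orders. SEP3 (AT1G24260) stood at 7.95, 7.11 and 9.73 CPM in ssrp1-2 and at 15.8, 11.8 and 14.0 CPM in spt16-2 (0.75 ± 0.25, 95% interval 0.20 to 1.29, adjusted p = 1.0). SEP1 (AT5G15800) stood at 1.80, 2.27 and 3.15 CPM in ssrp1-2 and at 5.21, 4.98 and 3.99 CPM in spt16-2 (0.97 ± 0.37, adjusted p = 1.0). SEP2 (AT3G02310) stood at 2.94, 2.71 and 4.99 CPM in ssrp1-2 and at 1.5, 1.42 and 1.85 CPM in spt16-2 (−1.16 ± 0.43, adjusted p = 1.0). SEP1 and SEP3 had the higher mean in spt16-2 and SEP2 in ssrp1-2, and none was called. SEP4 (AT2G03710) overlapped between the mutants, at 6.89 to 8.62 CPM in ssrp1-2 and 6.22 to 8.07 CPM in spt16-2. In Col-0 SEP4 stood at 8.03 to 9.95 CPM, not below the mutants. Of the 9 tested floral organ genes 4 did not overlap between the mutants, 3 with spt16-2 above and 1 with ssrp1-2 above, beside 8.5% of all tested genes. In Col-0 SEP3 was at 1.01 to 1.90 CPM, SEP1 at 0.468 to 0.779 CPM and SEP2 at 0.0878 CPM or less, below every FACT mutant library. SEP1 overlaps a tested gene, AT5G15790. PI (AT5G20240), which specifies petals and stamens, stood at 2.07 to 2.80 CPM in ssrp1-2 and 3.35 to 3.92 CPM in spt16-2 (0.62 ± 0.35, adjusted p = 1.0). Its partner AP3 (AT3G54340) stood at 2.2 to 3.6 CPM in ssrp1-2 and 1.77 to 2.43 CPM in spt16-2, with overlap.

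STM (AT1G62360), the homeobox gene that keeps the shoot meristem undifferentiated, stood at 13.6, 15.4 and 11.2 CPM in ssrp1-2, at 7.30, 9.17 and 7.72 CPM in spt16-2 and at 2.37 to 4.62 CPM in Col-0 (−0.73 ± 0.21, adjusted p = 0.66). CUC2 (AT5G53950), which sets organ boundaries, stood at 2.42, 2.30 and 2.85 CPM in ssrp1-2 and at 1.34, 1.55 and 1.21 CPM in spt16-2 (−0.89 ± 0.27, adjusted p = 0.88). For both genes all ssrp1-2 libraries lay above all spt16-2 libraries, and spt16-2 above Col-0. They are the 2 of 10 tested meristem and boundary genes without overlap between the mutants. Of all tested genes 3.98% had ssrp1-2 above. SPL9 (AT2G42200), a target of miR156 in the age pathway, had the same order, at 19.6, 17.7 and 20.4 CPM in ssrp1-2, at 14.8, 13.3 and 14.9 CPM in spt16-2 and at 9.48 to 10.3 CPM in Col-0 (−0.43 ± 0.12, adjusted p = 0.63). Of the 8 tested genes of the SPL list it was the only 1 without overlap between the mutants, beside 8.5% of all tested genes. The list had 0 called genes, beside 0.0684% of all tested genes, and a median of −0.12.

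Among the floral repressors of the FLC clade, MAF5 (AT5G65080) stood at 0.517, 0.465 and 0.277 CPM in ssrp1-2 and at 0.851, 1.69 and 2.06 CPM in spt16-2, with Col-0 at 0.664 to 1.99 CPM (1.87 ± 0.46, 95% interval 0.88 to 2.85, adjusted p = 0.39). FLM (AT1G77080) stood at 13.7 ± 0.629 CPM in ssrp1-2, at 18.9 ± 1.33 CPM in spt16-2 and at 21.6 ± 2.65 CPM in Col-0 (SD, n = 3), with a difference between the mutants that was not called (0.46 ± 0.14, adjusted p = 0.88). In both genes ssrp1-2 was below every library of the other 2 genotypes. They are the 2 of 7 tested genes of this list without overlap between the mutants, beside 8.5% of all tested genes. FLC (AT5G10140) itself was near 0, at 0 to 0.381 CPM in ssrp1-2 and 0.155 to 0.343 CPM in spt16-2, and its 95% interval ran from −1.95 to 2.12. MAF2, MAF3, MAF4 and SVP overlapped between the mutants. None of the 7 genes of this list was called, beside 0.0684% of all tested genes.

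**Figure D4:**
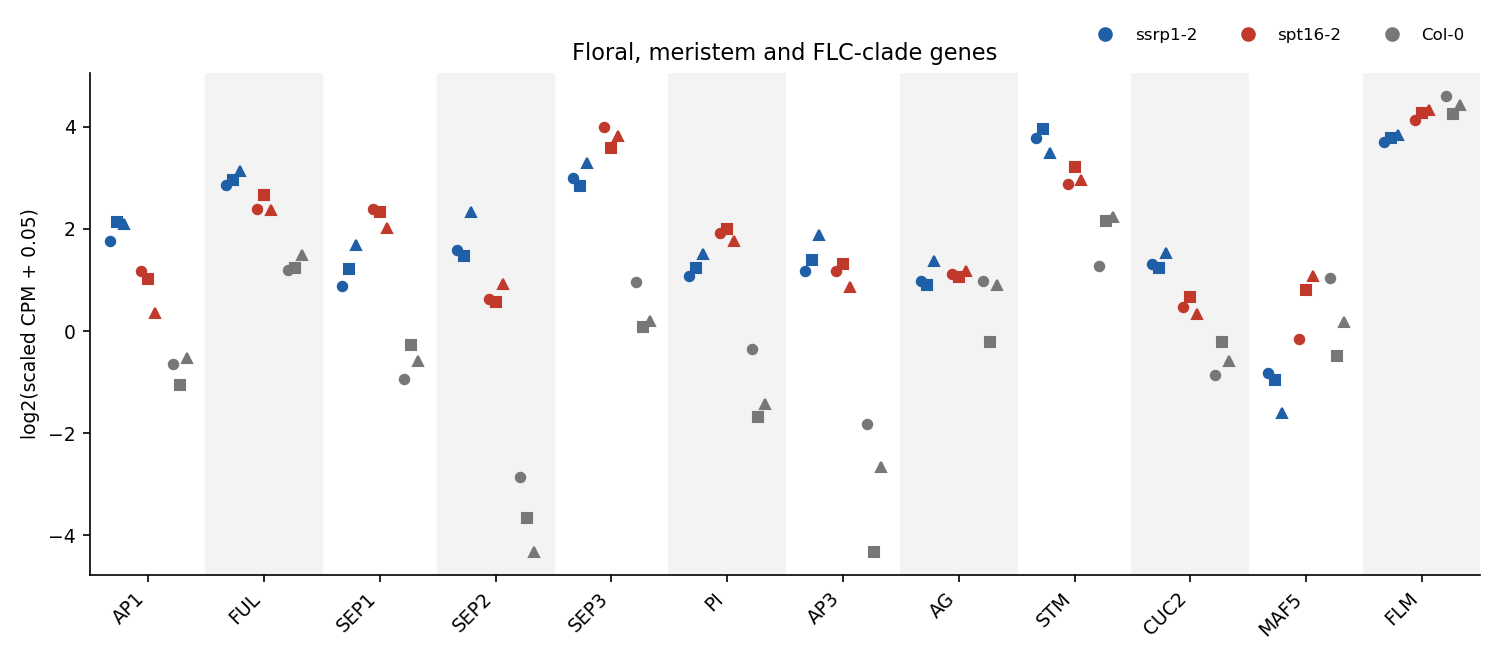
Scaled CPM of floral, meristem and FLC-clade genes in each ssrp1-2 (blue), spt16-2 (red) and Col-0 (grey) library, as log2 of CPM plus 0.05 (circle, square and triangle are replicates 1, 2 and 3). The 12 were picked from their lists for display and none was called between the mutants; over the whole lists, 4 of 11 floral promoters, 4 of 9 floral organ genes, 2 of 10 meristem genes and 2 of 7 FLC-clade genes did not overlap, beside 8.5% of all tested genes.

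Most genes of the chromatin and elongation machinery had differences bounded within 2-fold, as did 77.7% of all tested genes. Among 14 genes of FACT and other histone chaperones only SSRP1 was called, beside 0.0684% of all tested genes, and SPT16 was added by the block. For 12 of the 14 the 95% interval lay within 2-fold. SPT6L, an elongation factor and histone chaperone, stood at 74.4 ± 6.87 CPM in ssrp1-2 and 74.2 ± 2.43 CPM in spt16-2 (SD, n = 3; 95% interval of the log2 difference −0.34 to 0.34). MSI1 (AT5G58230), a histone-binding subunit of several complexes, stood at 37.7 ± 0.531 and 37.0 ± 0.766 CPM. ASF1A and ASF1B, HIRA, FAS1 and FAS2, which handle H3-H4, and the NAP1 and NRP genes, which handle H2A-H2B, had point estimates between −0.05 and 0.13.

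By its title the series asks about H2A.Z, the histone variant that the SWR1 complex inserts into nucleosomes. Of 14 genes of H2A.Z and of the SWR1 and INO80 complexes 0 were called, beside 0.0684% of all tested genes. In all 14 the 95% interval lay within 2-fold, beside 77.7% of all tested genes. The H2A.Z gene HTA11 (AT3G54560) had the lowest estimate, at 55.1, 66.2 and 46.7 CPM in ssrp1-2 and 54.3, 38.6 and 43.1 CPM in spt16-2 (−0.30 ± 0.16, 95% interval −0.66 to 0.05, adjusted p = 1.0). The ranges overlapped. The H2A.Z gene HTA9 stood at 77.8 ± 15.9 and 74.6 ± 15.2 CPM, and HTA8 at 15.7 ± 1.04 and 15.6 ± 0.659 CPM. PIE1, the ATPase of SWR1, stood at 16.0 ± 2.58 and 16.2 ± 3.36 CPM, and its subunit ARP6 at 26.0 ± 1.34 and 26.6 ± 2.18 CPM. Of 13 transcript elongation factors, among them the PAF1 complex and SPT4-SPT5, 0 were called and all 13 intervals lay within 2-fold, beside the same shares of all tested genes. The same held for 22 of 22 DNA methylation genes and for 32 of 34 core and linker histone genes.

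The remaining lists held no called gene, beside 0.0684% of all tested genes. In the fit of the 6 libraries with the block, MAM3 (AT5G23020), an enzyme of glucosinolate side-chain elongation, was called (0.63, adjusted p = 0.045), at 18.3, 20.6 and 12.8 CPM in ssrp1-2 and 26.4, 32.8 and 20.4 CPM in spt16-2, with overlap. For photosynthesis 29 of 31 point estimates were below 0, at a median of −0.06. All 31 intervals lay within 2-fold, beside 77.7% of all tested genes. The median turned to 0.07 without the library labelled spt16-2 replicate 2. The jasmonate list had 15 of 16 estimates below 0 and a median of −0.63, and the size of this median depended on ssrp1-2 replicate 2. Of its 16 tested genes 2, VSP2 among them, had every ssrp1-2 library above every spt16-2 library, beside 3.98% of all tested genes. VSP2 (AT5G24770), a storage protein induced by jasmonate, stood at 61.8, 933 and 72.7 CPM in ssrp1-2 and at 48.9, 52.4 and 28.6 CPM in spt16-2. The jasmonate synthesis gene LOX2 was likewise highest in that library, at 1381 CPM beside 429 and 484 CPM in the other ssrp1-2 libraries. Without ssrp1-2 replicate 2 the median of the list was −0.07. The median of the touch and rapid stress list moved more with that library, from 0.33 to 1.38 without it, and to −0.03 without the library labelled spt16-2 replicate 2.

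Single members stood out of their lists without being called. FSD1 (AT4G25100), the iron superoxide dismutase of the chloroplast, stood at 196, 299 and 191 CPM in ssrp1-2 and at 507, 415 and 552 CPM in spt16-2, with Col-0 at 275 to 491 CPM (1.1 ± 0.27, 95% interval 0.53 to 1.68, adjusted p = 0.40). The copper-zinc enzyme CSD2 (AT2G28190), which plants use in place of FSD1 when copper is ample, stood at 1425, 1469 and 1446 CPM in ssrp1-2 and at 1167, 1068 and 1222 CPM in spt16-2 (−0.33 ± 0.18, adjusted p = 1.0). Both pairs of ranges were apart, in opposite directions. Of the 6 tested copper response genes 3 did not overlap, 1 with spt16-2 above and 2 with ssrp1-2 above, beside 8.5% of all tested genes. The third was CCS, at 161.2 to 184.1 CPM in ssrp1-2 and 118.7 to 160.7 CPM in spt16-2. SAUR19 (AT5G18010), an auxin-induced gene of cell expansion, stood at 0.272, 0.192 and 0.328 CPM in ssrp1-2, at 1.13, 0.932 and 1.29 CPM in spt16-2 and at 0.967 to 1.79 CPM in Col-0 (2.07 ± 0.48, 95% interval 1.04 to 3.09, adjusted p = 0.33). It was called lower in ssrp1-2 than in Col-0 (−2.43, adjusted p = 0.040) and not in spt16-2 (−0.37, adjusted p = 0.90).

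**Figure D5:**
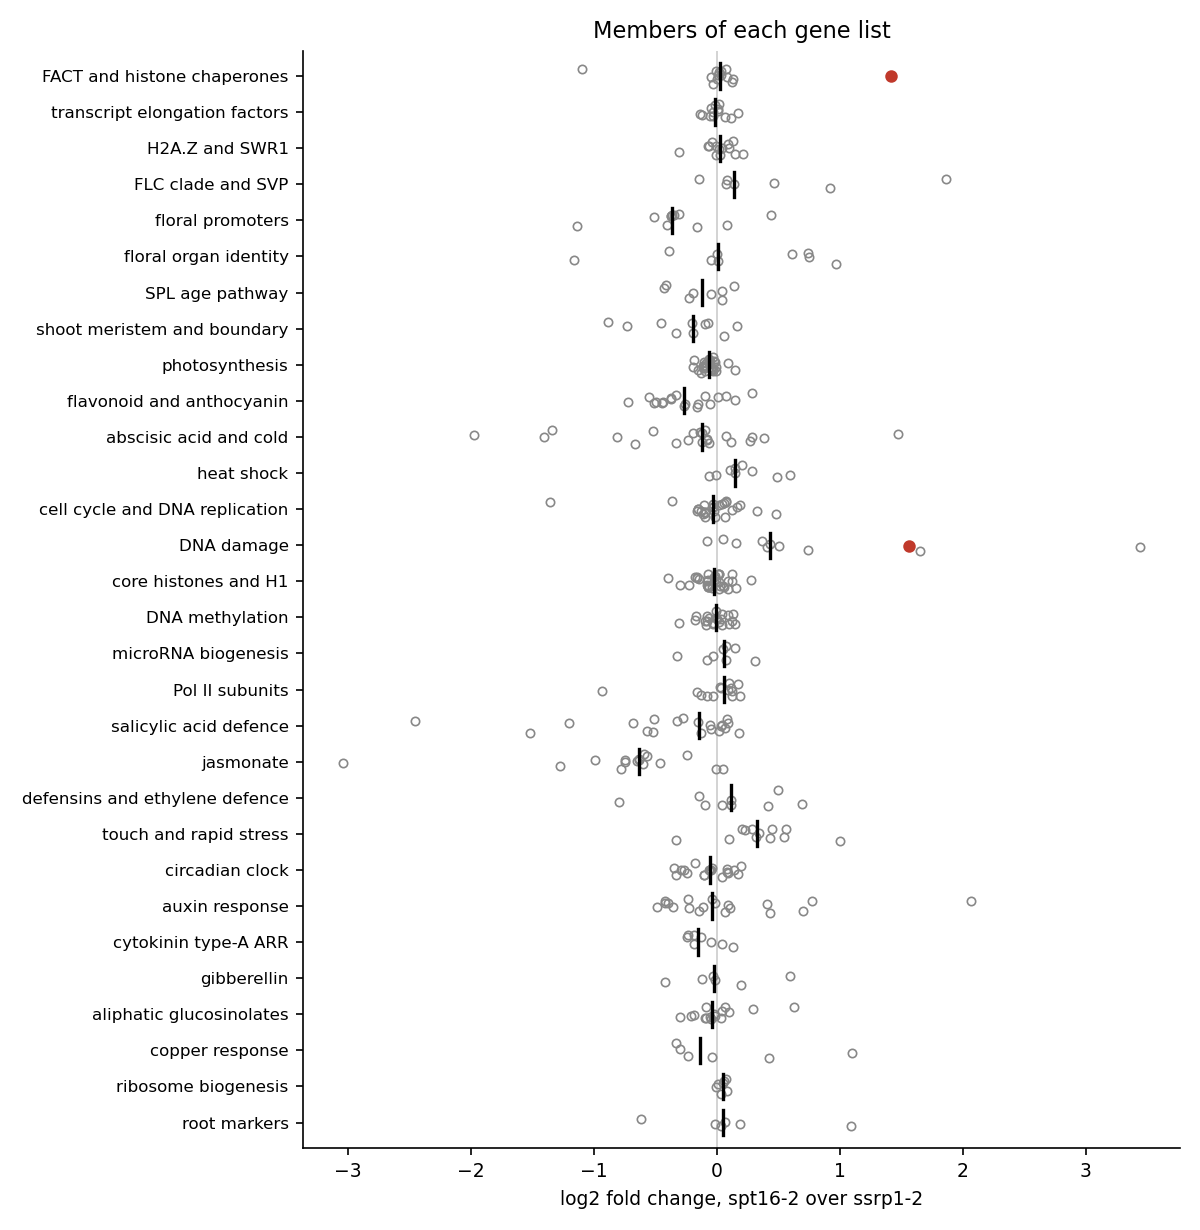
Log2 fold change of spt16-2 over ssrp1-2 for every tested member of the 30 gene lists with at least 3 tested members, 1 circle per gene, with a black bar at the list's median. The called members are in red (SSRP1 at 1.42 and NAC044 at 1.56); the lists of chromatin and elongation genes lie close to 0, and the DNA damage list has a median of 0.43.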

How the data were processed

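RNA-seq libraries of 12-day seedlings were analysed. Per the submitters' processing notes, the authors used fastp 0.23.4 and HISAT2 2.2.1 on TAIR10. The read counter is not given in the sources used here, nor is its use of strand or of multi-mapping reads. The deposited table of whole-number counts per gene (32833 genes) was tested as it stands. A second deposited table, named TPM, holds a length-scaled signal whose columns sum to 652496 to 1181546. It entered the limma alternative and gave the relative gene lengths for the length trend. Totals ran from 39483328 to 43434901 counts over the 12 libraries. Reads carry no molecular identifiers, so floors and counting intervals reflect counting error alone.

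edgeR 4.0.16 (R 4.3.3) was used with TMM scaling, filterByExpr (minimum count 10) and quasi-likelihood tests (robust) with genotype as the factor in all 12 libraries. Benjamini-Hochberg adjustment ran over 20471 genes. Contrasts with Col-0 share its libraries and are given side by side only. Replicate numbers come from the labels, which do not say what they mark. Same-numbered ssrp1-2 and spt16-2 libraries deviated together (correlations 0.200, 0.340 and 0.287 for replicates 1 to 3, and −0.321 to 0.0892 between other numbers), so the numbers were taken to pair them. Deviations from a group mean cancel within the group, which lowers the correlations between other numbers. The block on all 12 libraries also pairs Col-0 and nrpb2-3. Same-numbered Col-0 and ssrp1-2 libraries correlated at −0.051, 0.375 and 0.228, and Col-0 and nrpb2-3 libraries at 0.024, 0.261 and 0.169. Col-0 replicate 1 thus hardly followed its number there, while it correlated at 0.122 with spt16-2 replicate 1.

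The comparison and the 31 gene lists were chosen with earlier results of these data known. Named genes are SSRP1 and SPT16, the called genes (up to 15 in each direction by fold change, with at least 50 mean counts and no overlap, and the 5 with the smallest adjusted p), and list members. Names came from the TAIR10.1 annotation (32548 loci found, 285 organelle loci not). Its build differs from the authors', so no coordinates or sequences are given. Near copies were found with blastn between its gene models. Alternatives were RLE factors, DESeq2 1.42.0, no filter, the 6 libraries alone, the replicate block, library totals, a length trend removed, organelle genes left out, limma-trend (limma 3.58.1) on log2 of the signal plus 1, and each library left out. The code was tested on simulated data.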

Additional observations from a re-analysis of the deposited data

How the results depend on the processing

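The counts of called genes depended on the test and the libraries. Against 11 higher and 3 lower, DESeq2 called 39 and 15, the 6 mutant libraries alone 17 and 5, and library totals with no factor 13 and 1. The latter moved the median of all genes to 0.039. With the replicate block 13 were called higher and 7 lower. In 2 alternatives added after the data were seen, the block on the 6 libraries called 35 and 19, and the block without the library labelled spt16-2 replicate 2 called 6 and 3. With each library left out in turn, 3 to 13 genes were called higher and 1 to 6 lower. Without any single 1 of the 6 mutant libraries, 7 to 11 of the 14 genes lost their call, the most (11) without spt16-2 replicate 3. Without nrpb2-3 replicate 2, 5 lost it. SSRP1, AT2G18193 and AT5G60250 were called in all 23 alternatives. All 14 were called in DESeq2 and in both blocked fits that kept every mutant library. Of 690 list medians under alternatives, 679 moved by less than the spread between replicates and 11 by more. The block on all 12 libraries added 6 calls and lost none of the 14, and the block on the 6 added 40. The causes were not tested. The 95% interval lay within 2-fold for 77.7% of genes, and for the others these libraries do not bound a 2-fold difference.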
